A study of Homo sapiens with 12 samples.

Results

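Human mitochondria carry their own small circular genome, and its 37 genes were followed here in the TPC1 cell line and in 3 clones of it with 1 disrupted DICER1 allele. The members were taken as every row of the deposited expression table whose gene name begins with MT-, which gave 37 of 58302 rows. Of these, 13 code for proteins, 2 for ribosomal RNAs (rRNAs) and 22 for transfer RNAs (tRNAs). All 37 matched the mitochondrial chromosome of GRCh38 by gene identifier, and all 37 passed the filter on low values, as did 16027 of the 58302 genes in all.

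TPC1 is a line from a papillary thyroid carcinoma, labelled wt and untreated. D11, WB1 and TD5 carry the genotype DICER (+/-) and were made from TPC1 by transient transfection of a CRISPR/Cas9 plasmid with a guide in an exon of DICER1, the gene of the ribonuclease that matures microRNAs. Each is a single clone, so a difference from TPC1 may belong to the clone, and no TPC1 clone that went through transfection without an edit is among the 12 libraries. There are 3 poly(A)-selected RNA-seq libraries per line. The study describes its experiments in general as independently repeated, but the labels do not say whether these libraries come from separate cultures, and the p-values measure the spread between these libraries, which may be technical. Values are scaled reads, that is, reads per gene after the authors set every library to about 20000000, and each library held an estimated 12700000 to 21020000 reads. DICER1 had 1360, 1129 and 1101 scaled reads in TPC1, 977, 1051 and 1093 in D11, 881, 939 and 815 in WB1, with 643, 627 and 809 in TD5, which gave log2 fold changes of −0.19, −0.43 and −0.77 (adjusted p = 0.138, 0.00404 and 9.02e-05 from limma). Of the thyroid markers, PAX8 stood at 7248 to 9879 and FOXE1 at 93 to 316 scaled reads while TSHR, SLC5A5 and NKX2-1 were at 0 in all 12 libraries. The keratins KRT8 and KRT18 were abundant and the epithelial markers EPCAM and CDH1 were at 0 to 5, so the label of a thyroid carcinoma rests here on PAX8, FOXE1 and these keratins. Of 9 markers of blood, endothelial, muscle and fibroblast cells only 2 passed the filter, CD68 and COL1A1. The summed level of the 9 was 1022 to 1230 scaled reads in TPC1, 1047 to 1232 in D11, 1354 to 1573 in WB1 and 1264 to 1413 in TD5. Most of it was CD68, with log2 fold changes of 0.04, 0.42 and 0.27 in D11, WB1 and TD5 (adjusted p = 0.778, 0.00318 and 0.0683 from limma). COL1A1 stood at 48 to 97 scaled reads. PTPRC, HBB, PECAM1, VWF and DES were at 0 to 10, and CD3E and DCN at 0 in all 12 libraries.

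Both strands of the mitochondrial genome are transcribed as long precursors. The heavy-strand transcript holds most of the genes, including both rRNAs, and the light-strand transcript holds MT-ND6 and a minority of the tRNAs. The tRNAs lie between the other genes, and cutting them out of the precursor, by RNase P at one end and ELAC2 at the other, releases the mRNAs and rRNAs. The proteins are core subunits of respiratory complexes I, III and IV and of the ATP synthase, which together carry out oxidative phosphorylation, while all factors that copy, cut and stabilise these RNAs come from nuclear genes.

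The tRNA genes differed among themselves more than any other class, and the sequences of those that mark the contrast are printed first, as the RNA-like strand read from GRCh38 and written with T, with the anticodon in capitals. The first 4 lie side by side on the light-strand transcript, between MT-TW and MT-CO1, and had the lowest log2 fold changes of the 37 genes in D11 and WB1. They are MT-TA at chrM:5587-5655, MT-TN at chrM:5657-5729, MT-TC at chrM:5761-5826 and MT-TY at chrM:5826-5891, all on the minus strand.
MT-TA: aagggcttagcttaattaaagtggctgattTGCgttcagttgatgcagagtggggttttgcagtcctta
MT-TN: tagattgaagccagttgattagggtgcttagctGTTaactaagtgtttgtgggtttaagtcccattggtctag
MT-TC: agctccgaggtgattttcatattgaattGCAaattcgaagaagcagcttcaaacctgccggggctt
MT-TY: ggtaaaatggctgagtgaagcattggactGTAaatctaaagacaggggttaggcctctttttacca
Their neighbours on either side rose in D11. MT-TW, at chrM:5512-5579 on the plus strand, precedes the 4, and MT-TS1, at chrM:7446-7514 on the minus strand, is the nearest light-strand gene on the far side of MT-CO1.
MT-TW: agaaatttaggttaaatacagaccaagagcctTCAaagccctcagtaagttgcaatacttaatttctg
MT-TS1: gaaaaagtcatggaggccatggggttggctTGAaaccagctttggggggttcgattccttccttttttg
The highest fitted fold change of all 37 genes in D11 and WB1 was that of MT-TR, at chrM:10405-10469 on the plus strand. MT-TH, at chrM:12138-12206 on the plus strand, is the first of 3 adjacent tRNAs that were among those called lower in TD5 than in D11 and WB1.
MT-TR: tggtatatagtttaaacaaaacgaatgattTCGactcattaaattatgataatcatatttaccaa
MT-TH: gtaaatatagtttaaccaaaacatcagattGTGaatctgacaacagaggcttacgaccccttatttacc
Between MT-TN and MT-TC lies a stretch of 31 bases, chrM:5730-5760, known as the origin of light-strand replication and shown because it splits the run of 4 tRNAs. Its plus strand reads:
OriL: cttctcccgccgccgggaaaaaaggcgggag

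The first question was how much of each library fell on the mitochondrial genes. Their share was 1.33%, 1.45% and 1.33% of the scaled reads in TPC1, 2.14%, 2.07% and 2.17% in D11, 2.22%, 2.20% and 1.90% in WB1, with 1.95%, 1.67% and 1.75% in TD5. Every clone library lay above every TPC1 library, and the TD5 libraries lay below those of D11 and overlapped with those of WB1. TPC1 had a mean of 1.37 ± 0.0738% (SD, n = 3), D11 of 2.13 ± 0.0550%, WB1 of 2.11 ± 0.175% and TD5 of 1.79 ± 0.145%. These are 1.55, 1.54 and 1.31 times the TPC1 mean. In bulk RNA a larger share cannot be told apart from less RNA of other kinds, nor more mitochondrial genomes per cell from more RNA per genome.

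**Figure D1:**
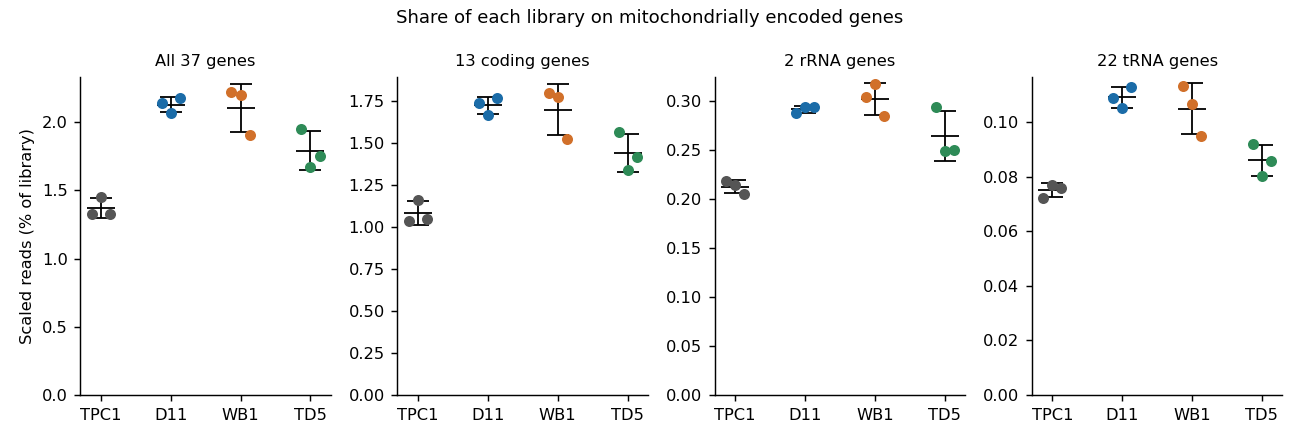
Share of the scaled reads of each library, in percent, on all 37 mitochondrial genes, the 13 coding genes, the 2 rRNA genes and the 22 tRNA genes. Points are the 3 libraries of each line, and the bars give mean and SD. The clones lie above TPC1 in every panel, with the means of D11 and WB1 highest.

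Most of this share was mRNA. The coding genes held 79.0 ± 0.905% of the mitochondrial reads in TPC1 and 81.2 ± 0.394% in D11, with WB1 (80.7 ± 0.555%) and TD5 (80.5 ± 0.355%) between them. The 2 rRNAs held 15.5 ± 0.829% in TPC1 and 13.7 ± 0.419% in D11. The 22 tRNAs held 5.49 ± 0.219% in TPC1 and less in each clone, at 5.13 ± 0.0583% in D11, 4.98 ± 0.123% in WB1 and 4.81 ± 0.0933% in TD5. The genes of the heavy-strand transcript held 94.6% to 95.6% of the mitochondrial reads over the 12 libraries. These are sums by the annotated strand of each gene. The strand setting of the read counting is not given in the sources used here, so from which transcript a read came was not tested. Because the libraries were poly(A)-selected, the shares of rRNA and tRNA are those of the selected RNA and not of the cell, and which molecules (mature tRNA or uncut precursor) gave the tRNA values was not tested.

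D11 had 25 of the 37 genes higher than TPC1 and 0 lower, at an adjusted p under 0.05 from limma and a change of at least 1.5-fold. Of all genes tested, 2.89% were called higher. In WB1, likewise 25 were called higher and 0 lower, against a background of 3.39%. In TD5 the count was 0 higher and 0 lower, against 1.12%, but 19 of the 37 passed the threshold on p alone, all of them higher, where 5.32% of all genes did. On p alone the count was 34 in D11 and 34 in WB1, against backgrounds of 19.9% and 18.6%. Before adjustment, 24 of the 37 had p under 0.05 in TD5, all of them higher, where 12.8% of all genes were. At both thresholds voom on the estimated reads also called 0. The median log2 fold change of the 37 genes was 0.73 in D11, 0.66 in WB1 and 0.35 in TD5, beside 0.05, 0.06 and 0.00 over all genes tested. In 21 of the 37 genes every clone library lay above every TPC1 library, as it did in 5.17% of all genes tested. The 3 comparisons share the TPC1 libraries. After correction of each library for GC content the counts fell to 12 in D11 and 11 in WB1, and the median of the 37 genes to 0.52 and 0.51. For TD5 the corrected median was 0.32 and the count stayed at 0. Over all genes tested the corrected median was −0.005 in D11, −0.001 in WB1 and −0.001 in TD5. The share of all genes called after this correction was not counted, here or below. The GC content of the 37 genes had a median of 42.7% and that of all tested genes 48.9%.

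**Figure D2:**
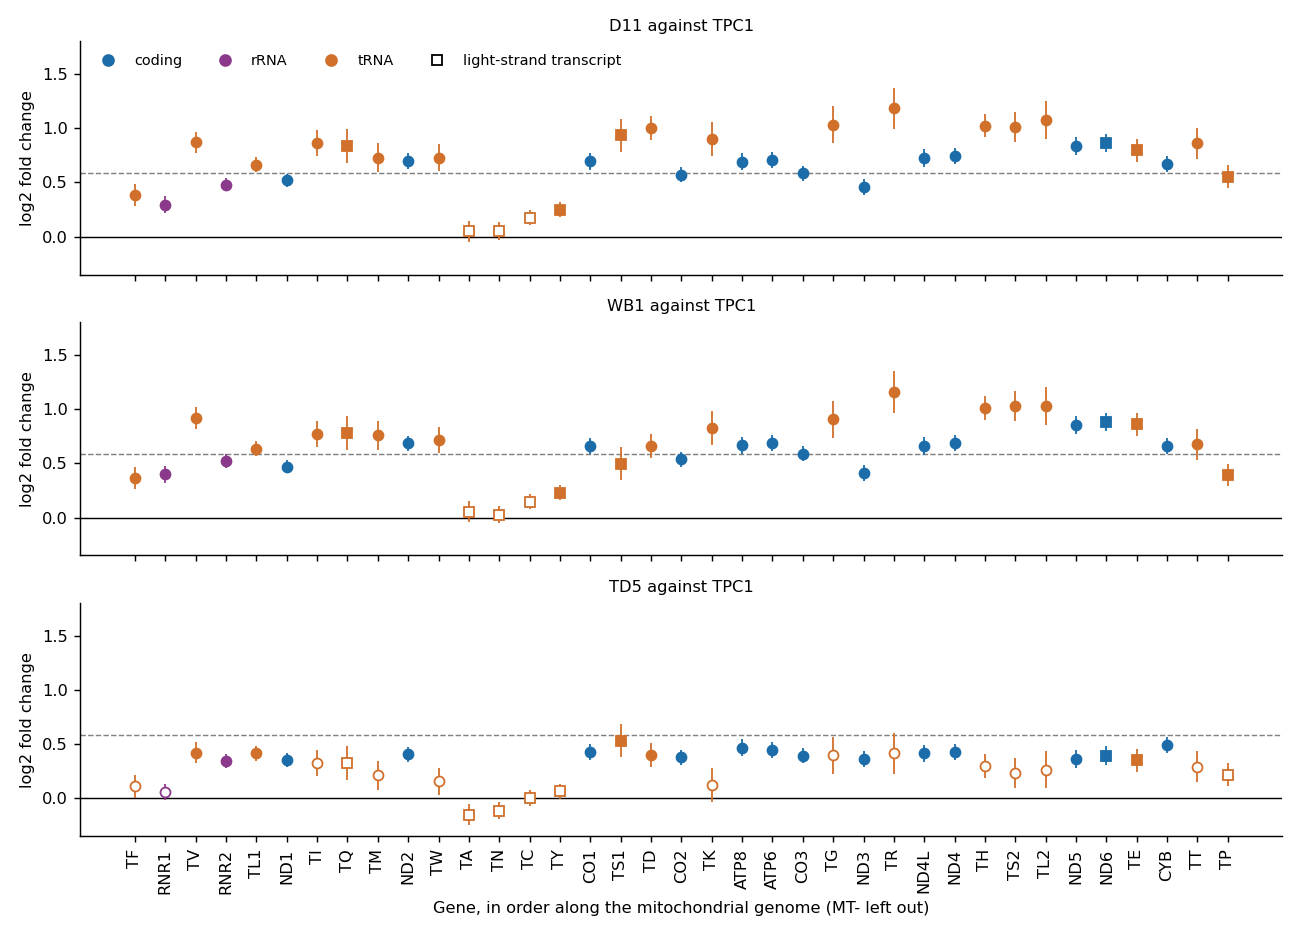
Log2 fold change against TPC1 for the 37 genes in the order of the mitochondrial genome, 1 panel per clone. Bars are standard errors, filled symbols have an adjusted p under 0.05, squares belong to the light-strand transcript, and the dashed line marks 1.5-fold. The 4 squares from TA to TY lie between −0.15 and 0.25, under the genes next to them on both sides.

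The 13 coding genes moved together. All 13 passed the threshold on p in each of the 3 clones, and in all 13 every clone library lay above every TPC1 library. With the fold threshold, 9 were called in D11, 10 in WB1 and 0 in TD5. After correction for GC content these counts were 4 in D11 and 2 in WB1. The median log2 fold change was 0.69 in D11, with a range of 0.46 to 0.86, 0.66 in WB1 (0.41 to 0.88) and 0.41 in TD5 (0.35 to 0.49).

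Complex I takes electrons from NADH and has 7 mitochondrially encoded subunits. MT-ND1 had 19436, 21597 and 21475 scaled reads in TPC1, 30333, 28629 and 30543 in D11, 30988, 29147 and 26472 in WB1, with 28048, 25578 and 26135 in TD5. MT-ND2 had 13221, 14509 and 13732 scaled reads in TPC1, 22876, 21677 and 22826 in D11, 24576, 22813 and 19482 in WB1, with 19595, 17250 and 18114 in TD5. MT-ND3 had 3574, 3772 and 3766 scaled reads in TPC1, 5156, 4952 and 5210 in D11, 5177, 5102 and 4548 in WB1, with 5105, 4148 and 5130 in TD5. In each of these genes all clone libraries exceeded all TPC1 libraries, and MT-ND3 had the lowest fold of the coding genes in D11 and WB1 (log2 0.46 and 0.41, adjusted p = 0.000375 and 0.000825). MT-ND2 passed both thresholds in D11 and WB1 (0.70 and 0.68), and MT-ND1 only that on p (0.52 and 0.47).

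MT-ND4L and MT-ND4 overlap by 7 bases and lie on 1 mRNA. MT-ND4L had 6149, 6736 and 6135 scaled reads in TPC1, 10589, 10046 and 10879 in D11, 10827, 10813 and 8621 in WB1, with 9135, 7708 and 8584 in TD5, and MT-ND4 had 29931, 33231 and 29654 scaled reads in TPC1, 52015, 50093 and 53100 in D11, 52793, 52655 and 44247 in WB1, with 45008, 38083 and 41828 in TD5. Both passed both thresholds in D11 (log2 0.73 and 0.74), as they did in WB1 (0.66 and 0.69). MT-ND5 had 16767, 17583 and 14589 scaled reads in TPC1, 28412, 28576 and 30152 in D11, 31335, 31412 and 25915 in WB1, with 22287, 18859 and 21743 in TD5. MT-ND6, the mRNA of the light-strand transcript, had 4878, 4914 and 4319 scaled reads in TPC1, 8313, 8414 and 8962 in D11, 9187, 9269 and 7677 in WB1, with 6415, 5400 and 6818 in TD5. These had the highest folds of the coding genes in D11 and WB1, at log2 0.84 and 0.86 for MT-ND5 and 0.86 and 0.88 for MT-ND6 (adjusted p = 2.75e-06 and 3.42e-06), but not in TD5 (0.36 and 0.40). The 2 genes meet end to end on opposite strands, and since the strand setting of the read counting is not given in the sources used here, reads of one may be counted on the other.

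MT-CYB, the mitochondrial subunit of complex III, had 15935, 18581 and 15823 scaled reads in TPC1, 26964, 25792 and 27359 in D11, 27533, 27147 and 24621 in WB1, with 26218, 22070 and 22651 in TD5. It was called in D11 and WB1 (log2 0.67 and 0.66) and had the highest fold of the coding genes in TD5 (0.49, standard error 0.07, adjusted p = 0.000318). Complex IV passes electrons to oxygen. Its core subunit MT-CO1 had 34603, 40477 and 34594 scaled reads in TPC1, 59383, 57108 and 60545 in D11, 60994, 60787 and 51474 in WB1, with 53998, 46605 and 47046 in TD5. MT-CO2 had 17658, 20328 and 18126 scaled reads in TPC1, 28506, 26954 and 27670 in D11, 28076, 28344 and 25128 in WB1, with 26736, 23358 and 22960 in TD5, and MT-CO3 had 22159, 24728 and 22757 scaled reads in TPC1, 35528, 33076 and 35642 in D11, 36619, 36058 and 32158 in WB1, with 33792, 28149 and 29674 in TD5. All 3 rose in every clone on p alone, and the log2 folds, with D11 first, WB1 next and TD5 last, were 0.69, 0.66 and 0.43 for MT-CO1, 0.57, 0.54 and 0.38 for MT-CO2 and 0.58, 0.59 and 0.39 for MT-CO3. The fold threshold runs through these values, and leaving out TPC1 replicate 2 brought MT-CO2 and MT-CO3 past it in D11 (0.63 for each).

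The ATP synthase subunits MT-ATP8 and MT-ATP6 overlap by 46 bases and share an mRNA. MT-ATP8 had 5971, 6721 and 6283 scaled reads in TPC1, 10289, 9918 and 10464 in D11, 10764, 10479 and 8930 in WB1, with 9688, 8039 and 8574 in TD5, and MT-ATP6 had 17352, 19534 and 17822 scaled reads in TPC1, 29998, 28583 and 30566 in D11, 31639, 30678 and 26034 in WB1, with 27270, 22769 and 24665 in TD5. Their log2 folds in the same order of clones were 0.69, 0.66 and 0.47 and 0.71, 0.69 and 0.45, and both were called in D11 and WB1. How the counting treated reads in the overlap is not given in the sources used here, so the values of these neighbours are not independent.

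Per 1000 bases of gene length, the order of the coding genes by their mean over the 12 libraries was MT-ATP8 (42721 scaled reads), MT-CO3 (39364), MT-ATP6 (37556), MT-CO2 (35800), MT-CO1 (32837), MT-ND4 (31606), MT-ND4L (29804), MT-ND1 (27753), MT-CYB (20501), MT-ND2 (18448), MT-ND6 (13423), MT-ND3 (13401) and MT-ND5 (13228). Of the 12 pairs of neighbours in this order, 8 stood in the same order in all 12 libraries. MT-ATP6 was above MT-CO2 in 8 of 12 libraries and in 0 of the 3 of TPC1, and MT-ND4L was above MT-ND1 in 10. At the low end the order changed with the line, since MT-ND6 was above MT-ND3, and MT-ND5 too, in every library of D11 and WB1, and below it in every library of TPC1 and TD5. All complex IV and ATP synthase mRNAs stood above all complex I mRNAs in mean level per length. MT-RNR2 reached 30138 and MT-RNR1 6828 on this scale, and the tRNAs ran from 1506 (MT-TW) to 46722 (MT-TY). The tRNA genes are only 59 to 75 bases long, and how reads that reach into a neighbouring gene were counted is not given in the sources used here. The level of a tRNA per length may therefore be overstated or understated beside that of a longer gene.

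The rRNAs had lower medians than the coding genes, with log2 fold changes of 0.39 (D11), 0.46 (WB1) and 0.20 (TD5). MT-RNR1, of the small subunit of the mitochondrial ribosome, had 6486, 5326 and 5263 scaled reads in TPC1, 6562, 7422 and 6920 in D11, 7499, 7482 and 7441 in WB1, with 6412, 5901 and 5451 in TD5. MT-RNR2, of the large subunit, had 37069, 37587 and 35738 scaled reads in TPC1, 50924, 51276 and 51821 in D11, 53307, 55981 and 49495 in WB1, with 52265, 43876 and 44485 in TD5. In MT-RNR1 the D11 and WB1 libraries lay above TPC1 and those of TD5 overlapped with it, while in MT-RNR2 all clone libraries lay above TPC1. The log2 folds were 0.30, 0.40 and 0.06 for MT-RNR1 (adjusted p = 0.00855, 0.00135 and 0.67) and 0.48, 0.52 and 0.35 for MT-RNR2 (adjusted p = 6.67e-05, 3.2e-05 and 0.00209). None of the 6 values reached 1.5-fold.

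Of the 22 tRNAs, D11 had 16 called higher, WB1 15 and TD5 0, and 0 were lower in any clone. The tRNAs had a median log2 fold change of 0.85 (D11), 0.74 (WB1) and 0.28 (TD5), and their range was wider than that of the coding genes, from 0.05 to 1.18 in D11. The 14 tRNAs of the heavy-strand transcript all passed the threshold on p in D11 and WB1, and 13 of them passed both thresholds in each. After correction for GC content these were 6 in D11 and 7 in WB1, and the GC content of the 14 had a median of 35.8%. In TD5, 3 of the 14 passed on p. Of the 8 light-strand tRNAs, 3 were called in D11, 2 in WB1 and 0 in TD5.

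The tRNAs at the start of the heavy-strand transcript flank the rRNAs, and those that follow surround MT-ND1 and MT-ND2. MT-TV (tRNA-Val) had 404, 438 and 357 scaled reads in TPC1, 692, 800 and 742 in D11, 856, 787 and 681 in WB1, with 579, 488 and 559 in TD5. MT-TL1 (tRNA-Leu), the most abundant tRNA of the heavy strand, had 2243, 2419 and 2369 scaled reads in TPC1, 3743, 3634 and 3795 in D11, 3920, 3765 and 3296 in WB1, with 3415, 2922 and 3077 in TD5. In both, all clone libraries lay above all TPC1 libraries, with log2 folds of 0.87 and 0.66 in D11. MT-TI (tRNA-Ile) had 145, 125 and 131 scaled reads in TPC1, 279, 243 and 256 in D11, 294, 207 and 233 in WB1, with 183, 151 and 184 in TD5. MT-TQ (tRNA-Gln), which overlaps it by 3 bases on the other strand, had 139, 98 and 89 scaled reads in TPC1, 220, 193 and 208 in D11, 234, 174 and 190 in WB1, with 177, 116 and 131 in TD5. MT-TM (tRNA-Met) had 121, 110 and 82 scaled reads in TPC1, 173, 195 and 184 in D11, 214, 162 and 192 in WB1, with 142, 116 and 112 in TD5. D11 (0.86, 0.84 and 0.73) had all 3 called, as had WB1 (0.77, 0.78 and 0.76), and none passed on p in TD5.

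MT-TW (tRNA-Trp) had 59, 80 and 73 scaled reads in TPC1, 139, 117 and 133 in D11, 147, 113 and 126 in WB1, with 73, 85 and 84 in TD5. Its D11 and WB1 libraries were all above TPC1 (log2 0.73 and 0.71), and TD5 overlapped with TPC1 (0.16, adjusted p = 0.457). The next 4 genes on the map behaved otherwise. MT-TN (tRNA-Asn) had 1371, 1535 and 1668 scaled reads in TPC1, 1670, 1426 and 1640 in D11, 1622, 1521 and 1499 in WB1, with 1462, 1446 and 1306 in TD5. MT-TC (tRNA-Cys) had 2252, 2534 and 2726 scaled reads in TPC1, 2961, 2681 and 2825 in D11, 2816, 2772 and 2714 in WB1, with 2659, 2508 and 2350 in TD5. MT-TY (tRNA-Tyr) had 2513, 2853 and 3043 scaled reads in TPC1, 3466, 3161 and 3355 in D11, 3375, 3288 and 3171 in WB1, with 3089, 2883 and 2807 in TD5. In MT-TN and MT-TC each clone overlapped with TPC1, and in MT-TY D11 and WB1 lay just above TPC1 while TD5 overlapped with it.

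MT-TA (tRNA-Ala), named after its values were seen because it completes the run, had 523, 604 and 603 scaled reads in TPC1, 605, 521 and 671 in D11, 649, 601 and 550 in WB1, with 544, 495 and 511 in TD5, and each clone overlapped with TPC1. The log2 fold changes in D11 were 0.05 for MT-TA (95% interval −0.15 to 0.25), 0.05 for MT-TN (−0.12 to 0.22), 0.17 for MT-TC (0.03 to 0.32) and 0.25 for MT-TY (0.11 to 0.39). The adjusted p from limma was 0.718, 0.648, 0.0634 and 0.0116. In WB1 the values were 0.06, 0.03, 0.15 and 0.23, of which MT-TY alone passed on p (adjusted p = 0.0188). In TD5 they were −0.15, −0.11, 0.00 and 0.07, and none passed. So in D11 the upper ends of all 4 intervals were below 0.585, the log2 of 1.5-fold. The signs of MT-TA and MT-TN in D11 and WB1, and of MT-TC and MT-TY in TD5, turned under some alternatives, none of them past the threshold on p.

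The 4 genes include abundant tRNAs. Together they held 46.1%, 48.8% and 52.9% of the tRNA reads in TPC1, against 39.9%, 37.0% and 37.5% in D11, 37.3%, 38.3% and 41.8% in WB1, with 42.2%, 45.6% and 40.6% in TD5. Every clone library was below every TPC1 library. The share of the 22 tRNAs in the mitochondrial reads was lower in the clones, as given above, although most tRNAs rose in D11 and WB1. The other 4 light-strand tRNAs had median log2 folds of 0.82 (D11), 0.64 (WB1) and 0.34 (TD5), against 0.11, 0.10 and −0.06 for the run of 4. The run was chosen after its values were seen, so this difference carries no test. The GC content of the run was 41.1% to 45.5% and that of the other light-strand tRNAs 33.8% to 49.3%. After correction for GC content the median of the run was −0.02 in D11 and −0.03 in WB1, and that of the other 4 went down to 0.66 and 0.55, with MT-TP no longer past the threshold on p in either clone. Along the light-strand transcript MT-TY comes first and MT-TA last, and the level per 1000 bases fell in that order, from 46722 through 40149 and 20737 to 8306 scaled reads.

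**Figure D3:**
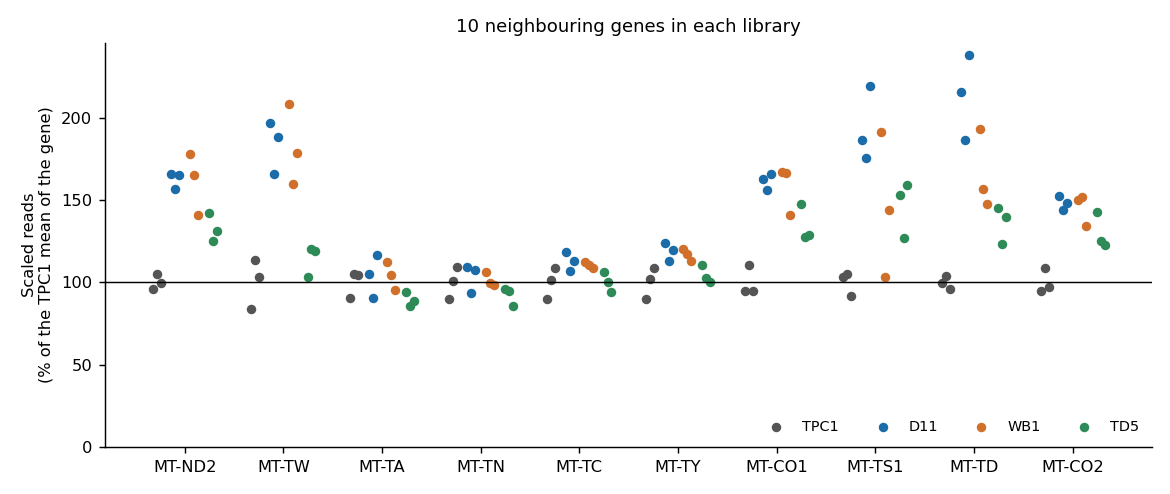
Scaled reads of 10 consecutive genes, from MT-ND2 to MT-CO2, as a percentage of the TPC1 mean of each gene. Each point is 1 library, coloured by line. In MT-TA, MT-TN and MT-TC each clone overlaps with TPC1, in MT-TY the means of D11 and WB1 are 1.19 and 1.17 times that of TPC1, and in the genes on both sides all D11 libraries lie above all TPC1 libraries.

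Past MT-CO1, the light-strand MT-TS1 (tRNA-Ser) had 805, 822 and 715 scaled reads in TPC1, 1457, 1371 and 1712 in D11, 1493, 807 and 1124 in WB1, with 1194, 991 and 1241 in TD5. WB1 was split, with replicate 2 among the TPC1 values, and its log2 fold of 0.50 became 0.72 without that library, past both thresholds. MT-TD (tRNA-Asp) had 165, 172 and 159 scaled reads in TPC1, 356, 308 and 393 in D11, 319, 259 and 244 in WB1, with 240, 204 and 231 in TD5, and MT-TK (tRNA-Lys) had 110, 107 and 73 scaled reads in TPC1, 186, 203 and 197 in D11, 201, 217 and 143 in WB1, with 111, 85 and 125 in TD5. Both were called in D11 (1.00 and 0.90) and WB1 (0.66 and 0.83). In TD5, MT-TD was above TPC1 in every library (0.40, adjusted p = 0.0275), whereas MT-TK overlapped with it (0.13).

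MT-TG (tRNA-Gly) and MT-TR (tRNA-Arg) lie on either side of MT-ND3. MT-TG had 224, 232 and 197 scaled reads in TPC1, 408, 492 and 501 in D11, 475, 482 and 332 in WB1, with 317, 206 and 380 in TD5, and MT-TR had 185, 195 and 117 scaled reads in TPC1, 361, 413 and 408 in D11, 420, 470 and 291 in WB1, with 248, 163 and 271 in TD5. Their D11 means were 2.15 and 2.38 times the TPC1 means, where the MT-ND3 between them reached 1.38. MT-TR is the gene of lowest GC content, at 23.1%, and its log2 fold of 1.18 in D11 became 0.68 after correction for GC content.

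MT-TH (tRNA-His), MT-TS2 (tRNA-Ser) and MT-TL2 (tRNA-Leu) follow each other without a gap between MT-ND4 and MT-ND5. MT-TH had 369, 379 and 310 scaled reads in TPC1, 663, 792 and 755 in D11, 802, 781 and 614 in WB1, with 423, 412 and 477 in TD5. MT-TS2 had 345, 339 and 251 scaled reads in TPC1, 575, 688 and 673 in D11, 714, 743 and 521 in WB1, with 382, 315 and 407 in TD5, and MT-TL2 had 278, 274 and 179 scaled reads in TPC1, 466, 566 and 553 in D11, 552, 609 and 393 in WB1, with 315, 228 and 345 in TD5. In all 3 the D11 and WB1 libraries were above TPC1, with log2 folds of 1.02, 1.01 and 1.08 in D11 and 1.01, 1.03 and 1.03 in WB1, and none passed on p in TD5. Between MT-ND6 and MT-CYB, MT-TE (tRNA-Glu) had 651, 625 and 578 scaled reads in TPC1, 1086, 1021 and 1153 in D11, 1241, 1216 and 974 in WB1, with 835, 666 and 897 in TD5, and past MT-CYB, MT-TT (tRNA-Thr) had 482, 414 and 434 scaled reads in TPC1, 819, 764 and 880 in D11, 827, 870 and 513 in WB1, with 618, 481 and 548 in TD5. MT-TE passed on p in every clone (0.79, 0.86 and 0.35), and MT-TT in D11 and WB1 (0.86 and 0.67). The remaining tRNAs, MT-TF and MT-TP, ran from 332 to 1105 scaled reads and were called in no clone, though both passed on p in D11 and WB1.

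Across the 37 genes the D11 change correlated with GC content at a Pearson r of −0.44 and with the place of the gene on the map at 0.41. In WB1 these were −0.35 and 0.37, and in TD5 −0.02 and 0.28. The genes share libraries and precursors and are not independent, so these values describe the 37 genes only.

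The second question was whether the clones differed from each other. Between WB1 and D11, 0 of the 37 genes were called in either direction, where 0.88% of all genes were called lower and 1.97% higher, so this count is near the background. In limma 2 of the 37 had p under 0.05 before adjustment, as in voom, and both were lower in WB1. Of all 16027 genes tested, limma had 1448 lower and 1642 higher at that threshold. The median log2 difference was −0.03, in a range of −0.44 (MT-TS1) to 0.10.

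TD5 was lower than both. Against D11, 7 genes were called lower and 0 higher, where 2.32% of all genes were called lower, and 25 of the 37 passed on p alone against a background of 14.8%. Against WB1, 5 were called lower and 0 higher (background 1.72%), and 17 passed on p alone (background 9.12%). All 7 were tRNAs of the heavy-strand transcript, namely MT-TD, MT-TK, MT-TG, MT-TR, MT-TH, MT-TS2 and MT-TL2, and the 5 were the same without MT-TD and MT-TG. For MT-TH the log2 difference was −0.73 against D11 (standard error 0.11, adjusted p = 0.000202) and −0.71 against WB1 (adjusted p = 0.000529). Every TD5 library lay below every D11 and WB1 library in MT-TH, MT-TS2 and MT-TL2, but also in other genes such as MT-TW, MT-TC and MT-ND6. Of the 37 genes, TD5 lay wholly below D11 in 30 and wholly below WB1 in 18. How often this held over all genes was not counted, so these counts cannot be set against a background and describe the members only. The coding genes differed less. Their median was −0.26 against D11 and −0.23 against WB1, beside −0.51 and −0.45 for the tRNAs, and MT-ND5 (−0.47 and −0.49) and MT-ND6 (−0.47 and −0.49) differed most among them. After correction for GC content 1 gene, MT-TS2, was called lower in each of these comparisons, and without WB1 replicate 3 or TD5 replicate 2 the count against WB1 was 9 or 3. TD5 had the lowest DICER1 of the 4 lines and D11 the highest of the clones, and with 3 clones no relation between DICER1 and the mitochondrial genes was tested.

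The nuclear genes that serve mitochondrial RNA were read beside them, since they transcribe, cut, stabilise, modify and charge it. Of 85 such genes in 5 lists, all tested, no clone had any past both thresholds (0 calls), by limma and by voom. At an unadjusted p under 0.05, limma had 17 higher and 18 lower in D11, where 26.9% and 17.8% of all genes were. In WB1 there were 11 higher and 20 lower (all genes 26.1% and 16.6%), and in TD5 2 higher and 17 lower (all genes 12.8% and 14.3%). Their median log2 fold changes were 0.00, −0.01 and −0.06. TFAM, which packages mitochondrial DNA and starts its transcription, had 1796, 1416 and 1648 scaled reads in TPC1, 1931, 2448 and 2585 in D11, 1998, 1999 and 1518 in WB1, with 1421, 1488 and 2124 in TD5. Its log2 fold in D11 was 0.51 (adjusted p = 0.0129), and it passed 1.5-fold when TPC1 replicate 1 or D11 replicate 1 was left out (0.59 and 0.64). WB1 and TD5 overlapped with TPC1 (0.18 and 0.03, adjusted p = 0.362 and 0.915).

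POLRMT, the mitochondrial RNA polymerase, had 1208, 1181 and 1301 scaled reads in TPC1, 1113, 1157 and 1031 in D11, 1052, 1072 and 1095 in WB1, with 1081, 1280 and 1228 in TD5, and no clone passed on p. ELAC2, which cuts the 3′ ends of the tRNAs, had 3330, 3504 and 3600 scaled reads in TPC1, 2806, 2935 and 2680 in D11, 2914, 2702 and 2904 in WB1, with 3010, 3235 and 2709 in TD5. All clone libraries were below TPC1, with log2 folds of −0.31, −0.29 and −0.22 and adjusted p = 0.00295, 0.00415 and 0.0378. TRMT10C, a subunit of the RNase P that cuts the 5′ ends, had 667, 562 and 636 scaled reads in TPC1, 697, 735 and 795 in D11, 648, 747 and 579 in WB1, with 553, 508 and 705 in TD5, with folds of 0.25, 0.08 and −0.09 that did not pass. The poly(A) polymerase MTPAP stood at 462 to 690 scaled reads (0.21, 0.18 and −0.11), again without a call. LRPPRC and SLIRP form the complex that stabilises mitochondrial mRNAs. LRPPRC had 8536, 7914 and 8757 scaled reads in TPC1, 7493, 7996 and 7763 in D11, 7747, 7407 and 6845 in WB1, with 7477, 7469 and 7826 in TD5, with folds of −0.12, −0.20 and −0.15, of which WB1 passed on p (adjusted p = 0.0168). SLIRP stood at 955 to 1321 (0.10, 0.11 and −0.17), and no clone passed.

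By list, the median log2 fold in D11 was 0.09 for the 17 genes of transcription and replication, 0.13 for the 15 of RNA processing, −0.12 for the 15 of stability, 0.02 for the 18 of RNA modification and −0.05 for the 20 of tRNA charging. In WB1 the stability genes had −0.19, with 7 of 15 lower and 0 higher on p alone, where 12.3% of all genes were lower and 18.6% higher. The same list had 5 lower and 1 higher in D11 (all genes 13.4% and 19.9%). For TD5 it had a median of −0.17, with 4 lower and 0 higher (all genes 6.57% and 5.32%). The 76 nuclear subunits of the respiratory chain and ATP synthase had medians of −0.05, −0.06 and −0.04 in D11, WB1 and TD5. They had 0 calls in any clone, where the shares of all genes called were also small, as given above. On p alone, 3 of them were higher and 15 lower in D11, where 19.9% of all genes were higher and 13.4% lower. In WB1 4 were higher and 7 lower (all genes 18.6% and 12.3%). In TD5 0 were higher and 4 lower (all genes 5.32% and 6.57%).

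**Figure D4:**
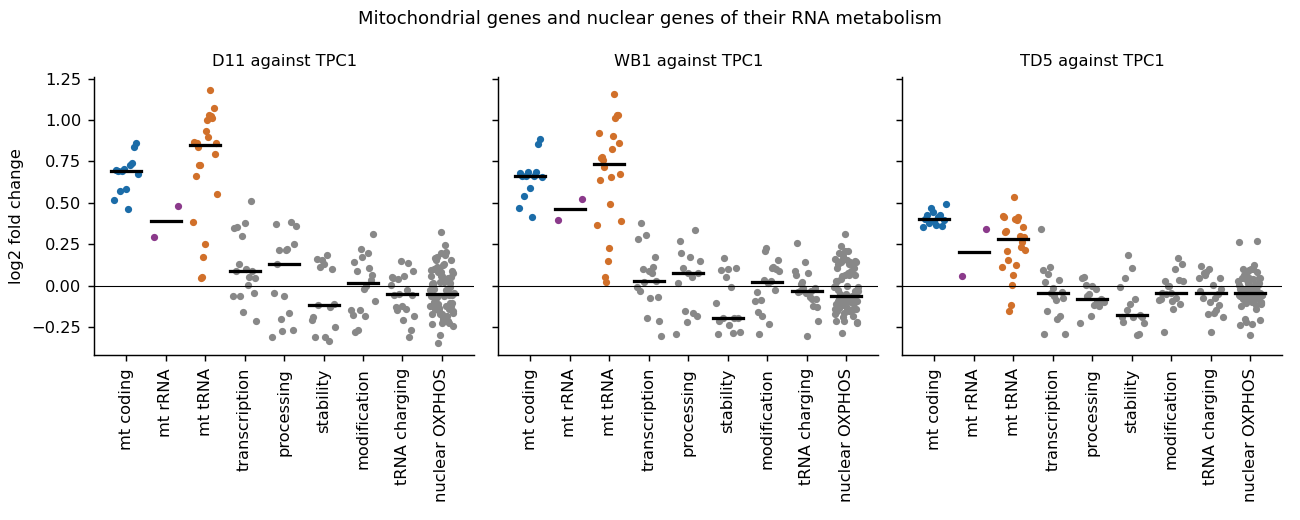
Log2 fold change against TPC1 of each gene (points) and the median (bars) for the mitochondrial coding, rRNA and tRNA genes, the 5 nuclear lists of mitochondrial RNA metabolism and the nuclear subunits of oxidative phosphorylation (OXPHOS). The nuclear medians lie between −0.19 and 0.13 in all 3 clones, under those of the mitochondrial classes.

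Parts of mitochondrial DNA were copied into the nuclear genome long ago, and such copies can take reads from the genes themselves. The table names 405 copies, of which 63 had a value above 0 and 6 a mean of at least 1 in 1000000 reads. All copies together held 0.724% to 0.876% as many scaled reads as the 37 genes. The most abundant, MTATP6P1, had 1378, 1657 and 1530 scaled reads in TPC1, 2445, 2499 and 2370 in D11, 2537, 2456 and 2337 in WB1, with 2361, 1959 and 2037 in TD5, with log2 folds of 0.68, 0.68 and 0.47 beside 0.71, 0.69 and 0.45 for MT-ATP6. MTND2P28 ran from 324 to 650 scaled reads, with folds of 0.70, 0.67 and 0.43 beside 0.70, 0.68 and 0.41 for MT-ND2. The values of these near-identical pairs are therefore uncertain.

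Some RNAs that stay in the nucleus were also higher in D11 and WB1, but fewer of them were in TD5. NEAT1, the RNA scaffold of paraspeckles, had 1704, 1486 and 2024 scaled reads in TPC1, 3501, 3807 and 3577 in D11, 4214, 4314 and 3426 in WB1, with 2065, 2175 and 2527 in TD5. Its log2 folds were 1.06, 1.19 and 0.38 (adjusted p = 2.41e-06, 1.1e-06 and 0.0248). MALAT1 had 701, 407 and 568 scaled reads in TPC1, 854, 1216 and 946 in D11, 1193, 1105 and 871 in WB1, with 545, 713 and 816 in TD5 (0.84, 0.92 and 0.31). Over the list of 7 nuclear-retained RNAs the summed level was 7616 to 9062 scaled reads in TPC1, 11532 to 13205 in D11, 11172 to 13246 in WB1 and 8123 to 9473 in TD5. MEG3 was at 0 throughout. Of the 6 tested, 5 passed on p as higher in D11, 5 in WB1 and 1 in TD5. Of all genes, 19.9%, 18.6% and 5.32% did. In TD5 only 2 of the 6 were fitted above 0, and MALAT1 did not pass (adjusted p = 0.27 from limma). The log2 folds in TD5 were −0.41 for KCNQ1OT1, −0.21 for SNHG14, −0.12 for NKTR and −0.01 for TUG1. The part of these RNAs in the mitochondrial result was not tested.

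**Figure D5:**
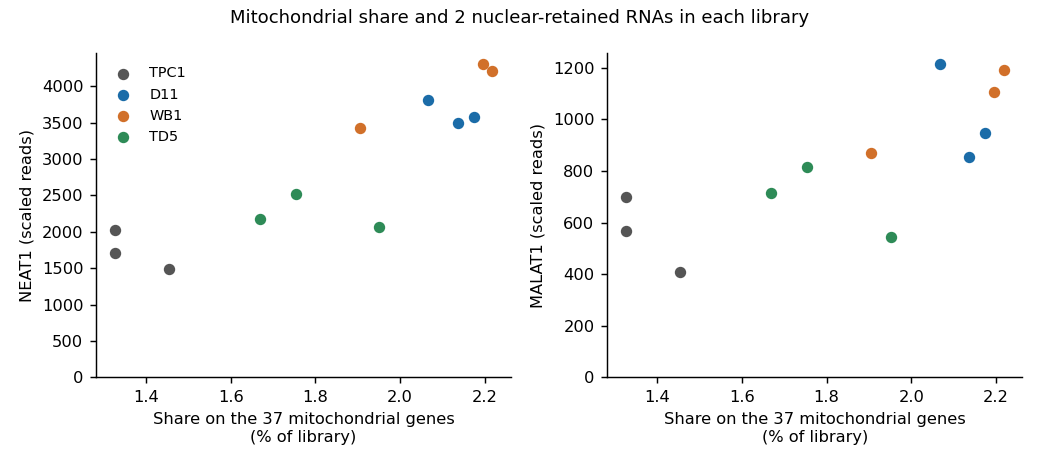
Scaled reads of NEAT1 and MALAT1 against the share of the library on the 37 mitochondrial genes, 1 point per library, coloured by line. D11 and WB1 lie high on both axes and TPC1 low, with TD5 mostly between them on the mitochondrial axis.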

How the data were processed

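The 12 RNA-seq libraries of TPC1, D11, WB1 and TD5 were used as deposited. The authors prepared stranded poly(A) libraries, mapped paired-end reads to GRCh38 with STAR 2.5.3a, counted genes with HTSeq 0.9.1 (versions from the submitters' processing notes), and set each library to 20000000 aligned reads. The deposited values are rounded results of that scaling and were treated as a score, not as counts, so the quasi-likelihood test of edgeR that the authors used was not run. Depth was estimated from regular gaps between whole numbers. TPC1 replicate 1 had no such gaps, and its depth was estimated from single whole numbers that held an excess of genes. A floor of 3 reads, for counting error only, corresponds to 2.85 to 4.72 scaled reads.

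Each library was set to a sum of 1000000, and log2(value + 1) went into a linear model in limma 3.58.1 (R 4.3.3) that held 1 mean per line and a variance trend over 12 libraries. Genes needed a value of at least 1 in at least 3 libraries. Low genes have understated folds on this scale. A gene was called at 1.5-fold or more with p, adjusted by Benjamini and Hochberg over 16027 genes, under 0.05. The code was tested on simulated data. The members, the gene lists and the alternatives were chosen with earlier results of these data known. Values are given in every library for the coding and rRNA genes, for tRNAs called in at least 2 clones and for the 5 most abundant tRNAs. In the nuclear lists the named genes are POLRMT, TFAM, LRPPRC, SLIRP, ELAC2, TRMT10C and MTPAP, and up to 4 called genes per list, of which there were 0. Of the nuclear copies at most 6 with a mean of at least 1 on that scale were read. Alternatives covered scaling, filter, pseudocount, fold threshold, libraries in the fit, voom on the estimated reads, GC content (known for 99.1% of tested genes), a replicate block and leaving out each library. Same-numbered D11 and TD5 libraries deviated together (correlations 0.107, 0.172 and 0.348), which the labels do not explain. Those of TPC1 and D11 (−0.193, −0.127 and −0.127) and of WB1 and TD5 (−0.068, −0.218 and −0.273) deviated in opposite directions. The fit with the number as a block was read as a paired alternative. It sets 1 block over all lines, so it does not pair D11 with TD5 alone. The values given come from the fit without it. Sequences were read from GRCh38, whose mitochondrial chromosome has 16569 bases. Tables were made in Python 3.11.15 (pandas 2.3.3, numpy 2.4.6, scipy 1.17.1) and plots in matplotlib 3.10.9.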

Additional observations from a re-analysis of the deposited data

Results flagged for a closer look

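TD5 and D11 differed from each other in the test of the difference itself. In 25 of the 37 mitochondrial genes the adjusted p from limma was under 0.05, all lower in TD5, where 14.8% of all genes were. After correction for GC content there were 9, and the share of all genes was not counted in that fit. The 7 genes that also passed 1.5-fold (2.32% of all genes, and 1 of the 37 after the correction), with their log2 difference of TD5 minus D11, were MT-TD (−0.60), MT-TK (−0.77), MT-TG (−0.64), MT-TR (−0.77), MT-TH (−0.73), MT-TS2 (−0.78) and MT-TL2 (−0.81).

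TD5 and WB1 differed in 17 of the 37 genes by the same test, again all lower in TD5, against 9.12% of all genes, and in 11 after correction for GC content. The 5 past 1.5-fold (1.72% of all genes, 1 of the 37 after the correction and 3 without TD5 replicate 2) were MT-TK (−0.70), MT-TR (−0.74), MT-TH (−0.71), MT-TS2 (−0.80) and MT-TL2 (−0.76). The shares of all genes given here are those of the fit without the correction. Both sets of genes share the TD5 libraries, and TD5 replicate 1 had the fewest estimated reads of the 12 libraries, at 12700000.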

How the results depend on the processing

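With the correction for GC content, alone or with the replicate block, the genes called higher were 12 in D11 and 11 in WB1 in place of 25 and 25, and those called lower in TD5 were 1 against D11 in place of 7 and 1 against WB1 in place of 5. It moved the median of the coding genes to 0.56 in D11 and 0.53 in WB1 and that of the tRNAs to 0.52 and 0.49. A pseudocount of 4 gave tRNA medians of 0.66 in D11 and 0.58 in WB1 and 4 genes lower in TD5 against D11. For the tRNA median in WB1, a pseudocount of 0.1 gave 0.85 and voom 0.85. With no minimum fold change 19 genes were higher in TD5 against TPC1, 25 lower in TD5 against D11 and 17 lower in TD5 against WB1. Leaving out 1 library at a time gave 25 to 28 genes higher in D11, 21 to 26 in WB1 and 0 to 3 in TD5, where the 3 (MT-TS1, MT-TG and MT-TR) came without TD5 replicate 2. It gave 0 to 1 lower in WB1 against D11, 5 to 10 in TD5 against D11 and 3 to 9 in TD5 against WB1, with 3 without TD5 replicate 2 and 9 without WB1 replicate 3. The median of the tRNAs then ran from 0.75 to 0.90 in D11 and from 0.64 to 0.78 in WB1, and that of the coding genes in WB1 from 0.61 to 0.75. The nuclear genes of mitochondrial RNA metabolism called in D11 were 0 to 1, the 1 being TFAM. The cause of these shifts was not tested, apart from the fewer libraries in a fit. As a paired analysis over all lines, the replicate block without the GC correction gave 25, 25, 0, 0, 7 and 5 called genes in the 6 comparisons, as without it. On p alone it gave 18 in place of 19 in TD5 against TPC1, 24 in place of 25 against D11 and 16 in place of 17 against WB1. Of 2553 values of single genes against TPC1 under 23 alternatives, 2471 stayed on their side of the thresholds, 70 fell below, 12 rose above and 0 of those past a threshold changed sign.

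Depth limits the low tRNAs most. The lowest, MT-TW, had 59 scaled reads in 1 library, against a floor of 2.85 to 4.72.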
